A study of Mus musculus with 4 samples.

Results

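The genes described here encode the protein components of the cytosolic ribosome. They were chosen by name, as mouse gene symbols that start with Rpl or Rps followed by a digit, together with Rplp0, Rplp2 and Rpsa, without the S6 kinases and without annotated pseudogenes. Each gene was read from the brightest of its Affymetrix probe sets that carry a single gene symbol, where a probe set is a group of short oligonucleotides read together as 1 value. This gave 50 of the 18193 genes named on the array. They comprise 20 proteins of the large (60S) ribosomal subunit, 21 of the small (40S) subunit, 2 proteins of the P stalk, and 7 symbols that fit the naming rule but are paralogs or a binding protein (Rpl3l, Rpl7l1, Rpl22l1, Rpl39l, Rps4l, Rps27l and Rps19bp1). A further 31 ribosomal protein symbols, Rplp1 among them, were reached only by probe sets annotated to several genes and are given separately.

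The cells were neutrophils taken from bone marrow of C57BL/6 mice aged 8 weeks and enriched with a magnetic bead kit. The 4 groups were unstimulated wild-type cells (miR-125a+/+), unstimulated knockout cells (miR-125a-/-), wild-type cells treated with lipopolysaccharide (LPS, a bacterial cell wall component that activates Toll-like receptor signalling) for 3 h, and knockout cells treated in the same way. RNA of 3 experiments was pooled for each group and hybridised to 1 array, so no difference has a replicate check and no test was run. The labels do not settle if the cells without LPS spent the same 3 h in medium.

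A ribosome joins ribosomal RNA to ribosomal proteins, most of which are present in 1 copy each, so their genes are expressed together at very high levels. Many of their messenger RNAs start with a cytosine followed by a run of pyrimidines, the terminal oligopyrimidine (TOP) motif, through which the kinase complex mTORC1 and the RNA-binding protein LARP1 control their translation. Ribosome assembly takes place mostly in the nucleolus and needs a separate group of biogenesis factors. Nucleoli shrink as granulocytes mature, and mature neutrophils live on ribosomes made largely at earlier stages.

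The genotypes differ in miR-125a, a microRNA that represses messenger RNAs which pair with its seed (bases 2 to 8, in capitals). Its mature strands are printed because their absence defines the knockout; both were read from RefSeq (GRCm38.p6), on the plus strand, at chr17:17830817-17830840 and chr17:17830855-17830876. The microRNA itself was not analysed here, so the genotype labels were not checked on it.
mmu-miR-125a-5p: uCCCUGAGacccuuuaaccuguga
mmu-miR-125a-3p: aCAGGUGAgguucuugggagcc

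On the arrays as a whole, between 17043 and 18726 of 45101 probe sets lay above a signal floor at log2 6.80 (signal 111), the 60th percentile of all values. Of the 18193 genes, 9865 were above it on at least 1 array. All 14 neutrophil marker genes found by a single symbol were above the floor on every array, with a summed signal between 346694 and 411643, and 1 of 6 T and NK cell markers was. In a pooled bulk sample, fewer cells of a type and less RNA per cell cannot be told apart.

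The ribosomal protein genes were among the brightest signals of these cells. Of the 50 genes, 47 were above the floor on all 4 arrays, and 35 had a mean log2 signal of at least 13 over the arrays, a linear signal of 8192. These 35 are called bright below. The paralog Rps27l lay just inside that line at 13.01 and Rpl22l1 just outside it at 12.97. Rpl3l, a paralog known from striated muscle, and the Rps16 probe set were above the floor on no array, and Rpl39l, a paralog known from testis, only on the LPS wild-type array, at 7.24. The brightest value of any member was that of Rps29, a small zinc-binding protein of the 40S subunit. Its log2 signal was 15.49 in unstimulated wild-type cells, 15.63 in unstimulated knockout cells, 15.69 in LPS wild-type cells and 15.87 in LPS knockout cells. A probe set's brightness also depends on its oligonucleotides, so these levels are not set against each other as amounts of messenger RNA.

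**Figure D1:**
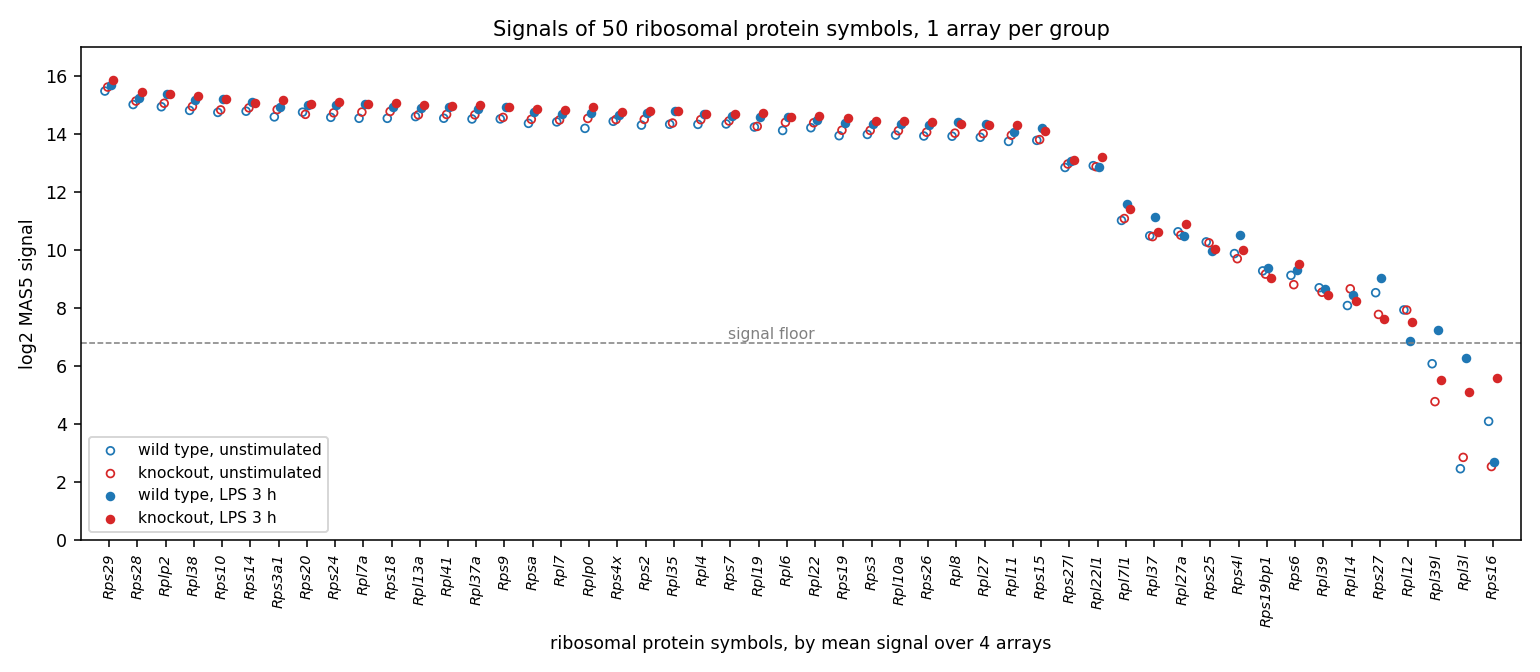
Log2 signal of each of the 50 ribosomal protein genes on the 4 arrays, 1 point per array, with the signal floor at 6.80 drawn as a line. Most genes lie above 13 with their 4 points close together, while Rpl3l and Rps16 lie below the floor on every array.

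After LPS, messenger RNAs of ribosomal proteins stood slightly above their unstimulated level in both genotypes, by far less than 2-fold at the median and by a similar amount among the brightest members. In wild-type cells the median difference (log2 signal with LPS minus without) of the 48 members measured was 0.37, a fold of 1.29, and 43 of them were above 0. In knockout cells the median of 47 members was 0.31, a fold of 1.24, and 41 were above 0. Over all genes measured, the medians were -0.03 and -0.05, and 47.8% and 46.4% of genes were above 0. This direction depended on the scaling of the arrays: relative to the 22 spiked-in poly-A control probe sets the members' medians were -0.20 and -0.30, against -0.55 and -0.61 for all genes. Its size did too: after quantile normalization, which gives every array the same distribution of values, the members' medians were 0.10 and 0.047, against 0.07 and 0.01 for all genes.

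All values are on the deposited scaling unless another is named. Calls were made at a difference of log2 1, which is 2-fold, without a test. In wild-type cells 0 of 48 members were called higher and 1 was called lower, against a background of 7.29% of all genes called higher and 9.69% called lower. In knockout cells 0 of 47 were called in either direction, against 6.62% higher and 7.99% lower. The single lower call was Rpl12, described below with its other probe sets.

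Among the 35 bright members the pattern was uniform under the deposited scaling. All 35 were above 0 in both genotypes, with a median of 0.39 and a range from 0.20 to 0.53 in wild-type cells, and a median of 0.33 and a range from 0.13 to 0.45 in knockout cells. Relative to the poly-A controls their medians were -0.18 and -0.28, and after quantile normalization 27 and 24 of the 35 were above 0, with medians of 0.08 and 0.04. Other bright genes also stood above 0, by less. The 518 genes outside the family with a mean of at least 13 had medians of 0.22 and 0.18, and 372 and 354 of them were above 0. Relative to the poly-A controls these other genes stood at -0.35 and -0.43, and after quantile normalization at -0.04 in both genotypes. In the range of means from 15 to 17, the 29 genes outside the family had deposited medians of 0.19 and 0.29, with 27 above 0 in each genotype. The 17 probe sets of the family in that range had medians of 0.28 and 0.29, so in knockout cells the medians were alike. How much of the members' difference comes with high signal as such was not tested.

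**Figure D2:**
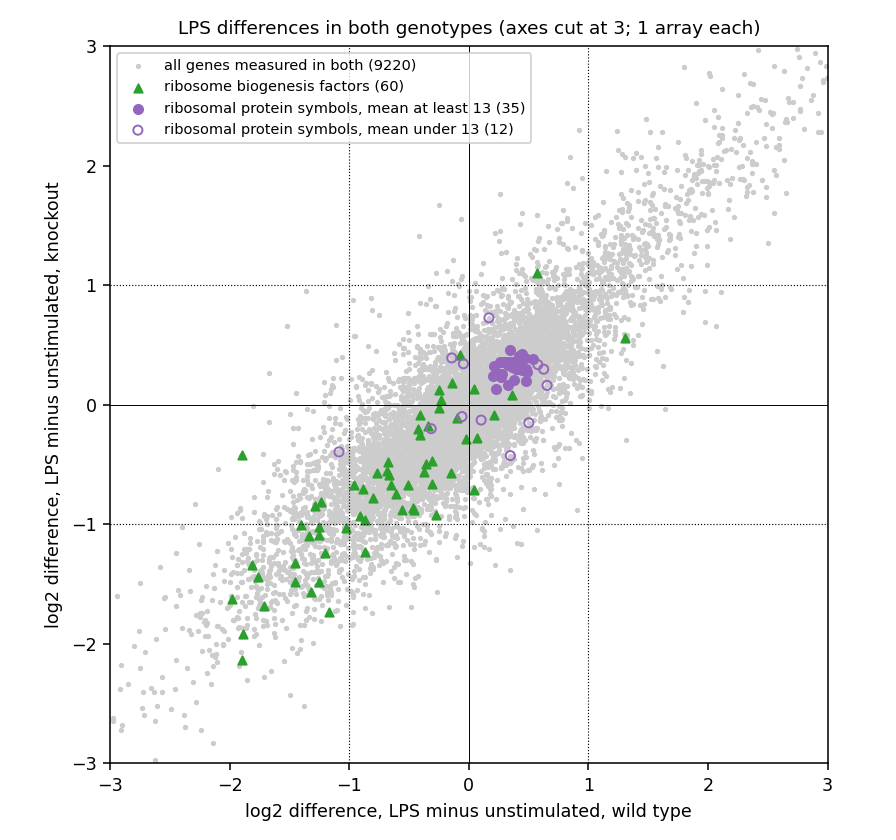
Log2 difference with LPS in wild-type cells (horizontal) against that in knockout cells (vertical) under the deposited scaling, with 1 point per gene measured in both, all genes in the background and the ribosomal protein and ribosome biogenesis genes in colour. The bright ribosomal protein genes form a tight group just above 0 on both axes, which lies below 0 on the poly-A scale, and most biogenesis factors lie below 0 on both.

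The proteins of the P stalk, the flexible arm of the large subunit that recruits the translation factors, were in this group. Rplp0, which anchors the stalk to the ribosome, had a log2 signal of 14.21 in unstimulated wild-type cells, 14.55 in unstimulated knockout cells, 14.74 in LPS wild-type cells and 14.93 in LPS knockout cells. Rplp2, one of the acidic proteins that form its tip, stood at 14.95, 15.07, 15.40 and 15.39 in the same order. Under the deposited scaling both LPS arrays were above both unstimulated arrays for each gene. Relative to the poly-A controls 0 of the 35 bright members were above 0 with LPS in either genotype. How many other genes show such a separation was not counted. The differences with LPS were 0.53 and 0.39 for Rplp0 and 0.45 and 0.31 for Rplp2, in wild-type and knockout cells.

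In the small subunit, the members had a median LPS difference of 0.37 in wild-type and 0.32 in knockout cells. Rps3, which lines the channel where messenger RNA enters and also takes part in NF-kappaB signalling, had log2 signals of 14.36 and 14.45 in LPS-treated cells, wild type first, which were 0.36 and 0.31 above the unstimulated arrays. Rps19, whose human counterpart is mutated in Diamond-Blackfan anaemia, had 13.95 and 14.14 in unstimulated and 14.37 and 14.55 in LPS-treated cells. Rpsa, also known as a laminin receptor, had 14.38 and 14.52 in unstimulated and 14.79 and 14.87 in LPS-treated cells. For Rps19 and Rpsa the LPS and unstimulated arrays did not overlap under the deposited scaling, and the knockout array was the higher one of each pair. The share of all genes that separate in this way was not counted. Rps10 stood at 14.76 and 14.84 without LPS and at 15.23 and 15.24 with it.

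In the large subunit the medians were 0.35 and 0.30. Rpl11, which binds and inhibits the p53 ligase Mdm2 when ribosome assembly is disturbed, had log2 signals of 13.76 and 13.97 in unstimulated and 14.07 and 14.32 in LPS-treated cells, wild type first. Rpl13a, which in myeloid cells can leave the ribosome and silence inflammatory messenger RNAs after interferon, had 14.61 and 14.67 in unstimulated and 14.91 and 15.03 in LPS-treated cells. Rpl19 stood at 14.25 and 14.27 without LPS and 14.59 and 14.73 with it, and Rpl35, near the exit of the peptide tunnel, at 14.35 and 14.39 without and 14.79 and 14.81 with it. For all 4 genes both LPS arrays were above both unstimulated arrays under the deposited scaling. The share of all genes with this separation was not counted. With each array scaled to the median of its probe sets, all 35 bright members were also above 0 with LPS in both genotypes. Relative to the poly-A controls 0 of the 35 were. With differences of 0.45 and 0.42, Rpl19 and Rpl35 were among the highest in knockout cells, together with Rps19 at 0.41 and Rps10 at 0.39.

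The dim subunit genes did not share this pattern. The 8 that were measured, among 9 with a mean below 13, had median LPS differences of 0.06 in wild-type and -0.13 in knockout cells, and they supplied most of the lowest values. In wild-type cells the highest differences were those of Rpl37 (0.65), the paralogs Rps4l (0.63) and Rpl7l1 (0.58), Rplp0 (0.53) and Rps27 (0.50). The lowest were those of Rpl12 (-1.09), Rps25 (-0.32), Rpl27a (-0.14), Rpl39 (-0.06) and Rpl22l1 (-0.05). In knockout cells the highest was Rps6 (0.73), followed by the bright genes Rpl19 (0.45), Rpl35 (0.42), Rps19 (0.41) and Rps10 (0.39). The lowest there were Rpl14 (-0.43), Rpl12 (-0.40), Rps25 (-0.20), Rps27 (-0.15) and Rps19bp1 (-0.13). Apart from Rplp0 and the bright genes named for knockout cells, all of these were dim.

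Several dim genes had LPS differences that varied in sign or size between genotypes. Rpl27a was at -0.14 in wild-type and 0.39 in knockout cells, Rps27 at 0.50 and -0.15, and Rpl37 at 0.65 and 0.16. Rpl14 and Rps6 varied likewise. Rpl14, a large subunit protein, had log2 signals of 8.09 in unstimulated wild-type, 8.67 in unstimulated knockout, 8.44 in LPS wild-type and 8.24 in LPS knockout cells, so the unstimulated knockout array was the highest. Rps6, the substrate of the S6 kinases that gives these enzymes their name, had 9.14, 8.81, 9.30 and 9.54 in the same order. Rps25, which is needed for initiation at some viral internal entry sites, had 10.29, 10.26, 9.97 and 10.05, with both LPS arrays lower. On brighter shared probe sets Rpl14 was above 0 with LPS by 0.15 and 0.28, Rps6 by 0.28 and 0.23 and Rps25 by 0.29 and 0.37.

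For 11 members a probe set shared between several gene symbols was brighter than the single-symbol probe set. Those 11 shared probe sets were all above 0 after LPS in both genotypes, with medians of 0.35 and 0.36. The shared probe sets of the 31 further ribosomal protein symbols were also all above 0, with medians of 0.37 and 0.31 and ranges from 0.17 to 0.57 and from 0.13 to 0.48, although some of these symbols are read from the same probe set, as Rpl36a and Rpl36al are. Rps16, unmeasured on its own probe set, was at 14.73 in unstimulated wild-type, 15.10 in LPS wild-type and 15.19 in LPS knockout cells on the shared one, with the unstimulated knockout array between the first and the second of these. Signal from the genes that share a probe set cannot be told apart.

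The call for Rpl12 rested on such a choice. Rpl12, part of the base of the P stalk, had log2 signals of 7.94 and 7.94 in unstimulated cells, 6.86 in LPS wild-type cells and 7.54 in LPS knockout cells on its single-symbol probe set, the LPS wild-type value lying just above the floor. The differences were -1.09 in wild-type and -0.40 in knockout cells. On the brighter probe set that Rpl12 shares with other symbols they were 0.35 and 0.43.

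Over all 216 probe sets of the family, 106 with a single symbol and 110 with several, the LPS difference went with brightness. The 140 probe sets with a mean of at least 13 were all above 0 in both genotypes under the deposited scaling, with medians of 0.38 and 0.33. Of 46 probe sets with a mean below 9, 21 were measured in wild-type cells, with 5 above 0, 4 called lower and a median of -0.22. Among 10096 other probe sets of that brightness measured in wild-type cells, 34.9% were above 0 and 15.8% were called lower, with the same median of -0.22. In knockout cells 19 of the 46 were measured, with 4 above 0, 4 called lower and a median of -0.40. There, 38.8% of 10345 other probe sets of that brightness were above 0 and 12% were called lower, with a median of -0.16. The class of the probe set, which records whether its oligonucleotides are unique (_at), shared within a gene (_a_at) or shared with other transcripts (_s_at and _x_at), gave similar medians with LPS but not the same spread. The medians of chosen probe sets in wild-type cells were 0.35 for 15 measured genes of class _at, 0.39 for 17 of class _a_at, 0.34 for 2 of class _s_at and 0.35 for 14 of class _x_at. In wild-type cells 11 of 15 of class _at were above 0, and in knockout cells 8 of 14, whereas all 17 of class _a_at and all 14 of class _x_at were above 0 in knockout cells. Most of the dim members are of class _at. Between genotypes without LPS the medians were -0.02 for class _at and 0.13 for class _a_at.

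**Figure D3:**
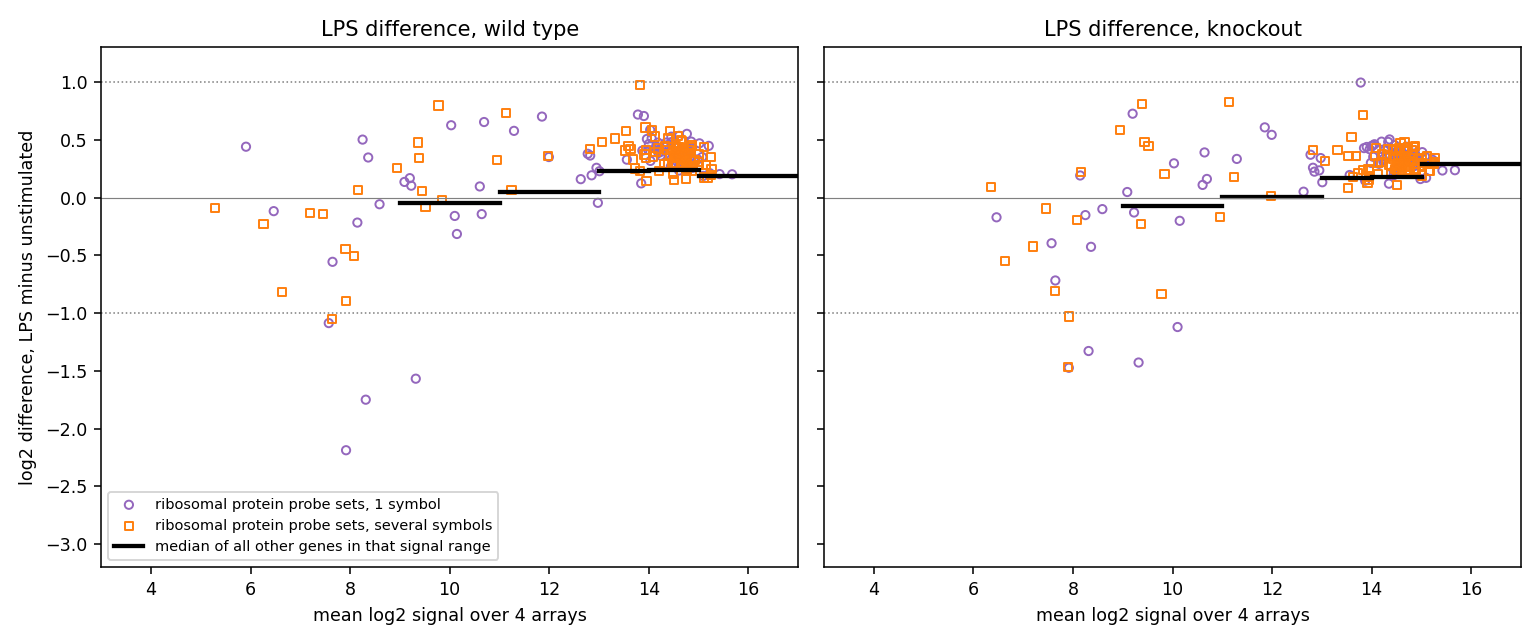
Log2 difference with LPS (vertical) against mean log2 signal over the 4 arrays (horizontal) for every measured ribosomal protein probe set, in wild-type and knockout cells, with single-symbol and shared probe sets in different colours and black bars for the median of all other genes in a signal range, under the deposited scaling. Probe sets above a mean of 13 lie in a narrow band above 0, which lies below 0 on the poly-A scale, and dimmer ones scatter to both sides.

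For 3 members, single-symbol probe sets of the same gene differed by 2-fold or more. Rpl41, which encodes the shortest ribosomal protein, had log2 signals of 14.56, 14.69, 14.96 and 14.99 on its brightest probe set (unstimulated wild type, unstimulated knockout, LPS wild type, LPS knockout). A dim probe set of Rpl41, 1454639_x_at, had 9.37, 8.80, 7.62 and 7.47, which was -1.75 and -1.33 with LPS. A second dim one, 1433530_at, had 8.98, 8.92, 6.32 and 7.45, a difference of -2.19 or lower in wild-type cells, where the LPS array was under the floor, and of -1.47 in knockout cells. The bright and dim probe sets of Rpl41 thus pointed opposite ways with LPS.

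Rps9, a small subunit protein that is placed early in assembly, showed the same split and one more. Its brightest probe set, 1433689_s_at, had 14.53, 14.58, 14.94 and 14.96 in that order. A dim one, 1426958_at, had 10.11, 10.02, 8.55 and 8.59, which was -1.57 and -1.43 with LPS. The third, 1434624_x_at, had 9.45 in unstimulated wild-type, 14.09 in unstimulated knockout, 9.80 in LPS wild-type and 14.63 in LPS knockout cells. It was 4.64 higher in knockout than in wild-type cells without LPS and 4.83 higher with LPS, while the brightest probe set differed by 0.05 and 0.016. Rpl37a had 14.53, 14.67, 14.88 and 15.02 on its brightest probe set and 10.39, 10.45, 10.23 and 9.33 on 1416218_x_at, where the difference with LPS in knockout cells was -1.12.

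The paralogs followed their ribosomal partners only in part. Rps27l, which is induced by p53, had log2 signals of 12.86 and 12.98 in unstimulated and 13.09 and 13.11 in LPS-treated cells, wild type first. Rpl22l1 stood at 12.92 and 12.88 without LPS and 12.87 and 13.22 with it, whereas its partner Rpl22 stood at 14.23 and 14.40 without and 14.50 and 14.63 with it. The LPS difference of Rpl22l1 was -0.05 in wild-type and 0.34 in knockout cells. Rps4l had 9.89 and 9.71 without LPS and 10.51 and 10.01 with it, and its X-linked partner Rps4x had 14.45 and 14.51 without and 14.68 and 14.78 with it. Rpl7l1, a nucleolar relative of Rpl7, had 11.03 and 11.10 without LPS and 11.61 and 11.43 with it, and Rpl7 had 14.43 and 14.50 without and 14.71 and 14.85 with it. Rps19bp1, which binds Rps19, had 9.29 and 9.18 without LPS and 9.39 and 9.05 with it.

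Between genotypes the members differed little. Without LPS the knockout array was above the wild-type array for 36 of 47 members, with a median of 0.12 (knockout minus wild type), and with LPS for 33 of 48, with a median of 0.08. Over all genes these medians were 0.00 and -0.01, and 50.9% and 49% of genes were above 0. The lean split by signal. Without LPS 34 of 35 bright and 2 of 12 dim members were above 0, and with LPS 28 of 35 and 5 of 13. Of the 518 bright genes outside the family, 322 were above 0 without LPS and 250 with it, with medians of 0.04 and -0.01. Of 29 such genes with a mean from 15 to 17, 27 were above 0 at both times, with medians of 0.12 and 0.22. After quantile normalization 29 of 47 members were above 0 without LPS, with a median of 0.027, and 24 of 48 with LPS, with a median of 0.0022. Scaling each array to the median of all its probe sets turned the members' median with LPS to -0.072. Those array medians, from 5.78 to 6.03, lay below the floor of 6.80. Without LPS 0 members were called in either direction, against a background of 0.351% called higher and 0.66% called lower. With LPS 0 were called higher, against 0.615%, and 1, Rps27, was called lower, against 0.626%.

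Rps27, a zinc-finger protein of the small subunit, had log2 signals of 8.54 in unstimulated wild-type, 7.79 in unstimulated knockout, 9.04 in LPS wild-type and 7.64 in LPS knockout cells. The differences, knockout minus wild type, were -0.75 without LPS and -1.40 with it. On the brighter probe set shared with other symbols the differences were 0.08 without LPS and -0.08 with it. Among the other members the highest differences without LPS were those of Rpl14 (0.58), Rplp0 (0.34), Rpl6 (0.28), Rps3a1 (0.25) and Rps18 (0.24), and the lowest after Rps27 were Rps6 (-0.32), Rps4l (-0.18) and Rpl39 (-0.15). With LPS the highest were Rpl12 (0.69), Rpl27a (0.42), Rpl22l1 (0.35), Rps3a1 (0.26) and Rpl11 (0.25), and the lowest after Rps27 were Rpl37 (-0.52), Rps4l (-0.51) and Rps19bp1 (-0.34). Several of these genes also have a brighter shared probe set. On it the differences without LPS were 0.14 for Rpl14, 0.21 for Rps6 and 0.06 for Rpl39. With LPS they were 0.12 for Rpl12, 0.17 for Rpl27a and 0.17 for Rpl37. Rps3a1 was the one bright gene among the highest at both times, with 14.60 and 14.85 without LPS and 14.93 and 15.19 with it, wild type first.

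The difference between the LPS responses (knockout minus wild type) had a median of -0.05 over 48 members, with 16 above 0, against 48.4% of all genes. It was called for 0 members, against 1.23% of all genes called higher and 0.872% called lower. The widest values were 0.69 for Rpl12, 0.56 for Rps6, 0.53 for Rpl27a, -0.77 for Rpl14 and -0.65 for Rps27, all dim on these probe sets. On their brighter shared probe sets the same 5 genes were at 0.08 (Rpl12), -0.05 (Rps6), -0.02 (Rpl27a), 0.12 (Rpl14) and -0.16 (Rps27). The 2 responses use separate control arrays.

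The factors that build ribosomes were lower after LPS, apart from the bright ribosomal protein genes. Of 64 ribosome biogenesis factors listed, 61 were matched and 60 were measured in wild-type cells, where 20 were called lower and 1 higher, with a median LPS difference of -0.66, against 9.69% of all genes called lower and 7.29% higher. In knockout cells 18 of 61 were called lower and 1 higher, with a median of -0.67, against 7.99% and 6.62% of all genes. The list's median was below 0 under all 4 scalings tried, from -0.42 to -1.20 in wild-type and from -0.57 to -1.28 in knockout cells. In wild-type cells 56 of 60 factors lay below the lowest bright ribosomal protein gene, and in knockout cells 57 of 61 did, as did 65.4% and 62.8% of all genes. The dim ribosomal protein genes, down to -1.09, overlapped the factors. Ncl, which encodes the nucleolar protein nucleolin, had log2 signals of 12.89 in unstimulated wild-type, 13.15 in unstimulated knockout, 11.12 in LPS wild-type and 11.70 in LPS knockout cells. Its LPS differences were -1.76 in wild-type and -1.45 in knockout cells.

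Within the list, Nop58, a core protein of the box C/D particles that guide methylation of ribosomal RNA, had LPS differences of -1.98 in wild-type and -1.63 in knockout cells. Dkc1, the pseudouridine synthase, was at -1.90 and -2.13, and Nolc1, a nucleolar chaperone of such particles, at -1.89 and -1.92. Rrp12 was at -1.17 and -1.74. Ftsj3, a methyltransferase of ribosomal RNA, was at -1.90 or lower in wild-type cells, where the LPS array was under the floor, and was not called in knockout cells, at -0.42. The single genes called higher were Rcl1 in wild-type cells, at 1.31, and Utp11 in knockout cells, at 1.10. Between genotypes the list's medians were 0.13 without and 0.09 with LPS. Riok2, a kinase of late small subunit maturation, was called lower in knockout cells at both times, at -1.54 and -1.05.

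Summed marker signals of other marrow cells also differed between the arrays. Those of stem and progenitor cells were 51980 and 54135 without LPS and 42772 and 42678 with it, wild type first. Erythroid markers, of which 2 were above the floor on all arrays, summed to 5022 and 7196 without LPS and 2796 and 3365 with it. Monocyte and macrophage markers summed to 31974 and 33708 without and 53630 and 51715 with LPS, and B and plasma cell markers to 22908 and 28214 without and 17895 and 23625 with it. Of 9 measured monocyte and macrophage markers, 5 were above 0 with LPS in each genotype. Their differences ran from -3.88 to 4.94 in wild-type and from -3.54 to 5.16 in knockout cells. Of B and plasma cell markers, 1 of 6 measured in wild-type and 3 of 5 in knockout cells were above 0. On all arrays 8 of 12 monocyte, 3 of 10 B cell and 5 of 10 progenitor markers were above the floor. None of the listed markers had a log2 signal of 0. The part of these cells in the ribosomal protein or biogenesis values was not tested.

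**Figure D4:**
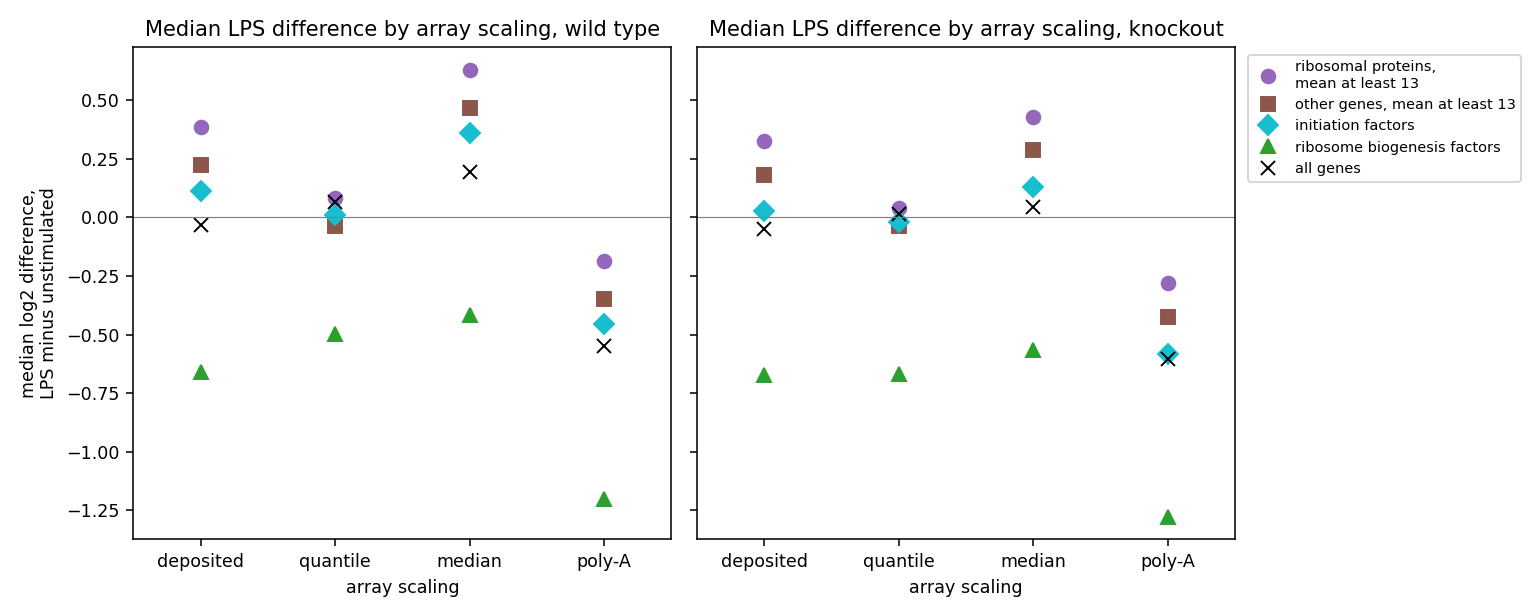
Median log2 difference with LPS of the 35 bright ribosomal protein genes, other bright genes, initiation factors, biogenesis factors and all genes under the deposited, quantile, median and poly-A scalings, in wild-type and knockout cells. The ribosomal protein median is above 0 under the first 3 and below 0 (-0.18 and -0.28) under poly-A scaling, and the biogenesis median is below 0 under all 4.

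Other parts of the translation machinery lay between these groups. Of 34 initiation factors, 0 were called higher and 3 lower in wild-type cells and 5 lower in knockout cells, with medians of 0.11 and 0.03. Of all genes 9.69% and 7.99% were called lower and 7.29% and 6.62% higher, so these counts and those of the shorter lists below lie within a few genes of the background. The lower ones were Eif5b, which joins the subunits (-1.47 and -1.05), Eif1a (-1.37 and -1.34) and Eif3a, the scaffold of initiation factor 3 (-1.14 and -1.04), and in knockout cells also Eif2b1 (-1.35) and Eif2b3 (-1.38). Of 12 elongation and termination factors measured, 1 was called lower in wild-type and 2 in knockout cells. These were Abce1, which splits ribosomes after termination (-1.07 and -1.14), and in knockout cells its partner Pelo (-1.25). The medians of this list were 0.06 and -0.15.

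Messenger RNAs outside the family that are known to carry a TOP motif had a median LPS difference of 0.26 in wild-type and 0.19 in knockout cells, with 13 and 11 of 16 above 0 and 0 called. After quantile normalization these medians were 0.08 and 0.02, and relative to the poly-A controls they were -0.31 and -0.41, with 2 and 0 of 16 above 0. Fau, which encodes ribosomal protein S30 fused to a ubiquitin-like protein and is missed by the naming rule, belongs to them. Its log2 signals were 14.47 and 14.60 without LPS and 14.91 and 14.95 with it, a difference of 0.44 and 0.35. The 16 matched genes of RNA polymerase I transcription had medians of -0.06 and -0.15, with 1 called higher and 1 lower in each genotype. The polymerase I factor Taf1c was the higher one at 1.51 and 1.05.

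Of 21 genes listed for the S6 kinases and the mTORC1 arm, 17 were matched, and the S6 kinase gene Rps6kb1 was not among them. Of the 16 measured, 0 were called higher, 3 lower in wild-type and 2 lower in knockout cells, with medians of 0.07 and -0.04. Larp4, an RNA-binding protein, was at -1.84 and -1.46, and Pdk1 at -1.52 and -1.12. In the mouse this symbol is pyruvate dehydrogenase kinase, a metabolic enzyme outside the mTORC1 arm, whose own kinase Pdpk1 was at 0.03 and -0.02. Without Pdk1 the list held 2 lower calls in wild-type and 1 in knockout cells, of 15 genes. Rps6ka3 was called in wild-type cells at -1.01. Larp1, the TOP-binding repressor, was not called, with 11.20 and 11.22 without LPS and 10.65 and 10.49 with it. Mtor itself stood at 9.29 and 9.24 without and 9.74 and 9.80 with LPS, also under 2-fold.

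The start sites of the genes were read for the TOP motif in RefSeq promoters (GRCm38.p6), which held 44 of the 50 genes with 52 annotated starts. A C at the annotated start followed by at least 4 bases that are each C or T was found at 8 of 52 starts (15.4%), against 823 of 32851 starts of all genes (2.51%). It was found at 8 of 44 starts of subunit and stalk genes and at 0 of 8 starts of the paralogs and Rps19bp1. Where the run could begin a few bases to either side of the annotated start, 21 of 52 starts held it (40.4%), against 18.3% of all. These were 19 of 44 starts of subunit and stalk genes and 2 of 8 starts of the paralogs and Rps19bp1. The letters CCGGAAG, which can be bound by ETS family factors, were present on either strand of the promoter at 21 of 52 starts (40.4%), against 8.86% of all. The letters AAGATGGC, part of the YY1 motif, were present at 4 of 52 (7.69%), against 2.75%. A match is a description of these letters, and annotated starts can lie some bases from the site used in these cells.

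The windows below run from 15 bases before to 15 bases from the annotated start, with the pyrimidine run from the start in capitals. They are shown because they set TOP starts of bright genes beside that of Rps6 and of Rps27, and beside the paralogs Rps27l and Rpl22l1, which have none. The windows lie at chr2:39005117-39005146 (minus strand, Rpl35), chr11:114668565-114668594 (plus, Rpl38), chr7:141447636-141447665 (plus, Rplp2), chr17:27635230-27635259 (minus, Rps10), chr4:86857353-86857382 (minus, Rps6), chr3:90213634-90213663 (minus, Rps27), chr9:66946071-66946100 (plus, Rps27l) and chr3:28805493-28805522 (plus, Rpl22l1).
Rpl35: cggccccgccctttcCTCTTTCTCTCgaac
Rpl38: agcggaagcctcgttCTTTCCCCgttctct
Rplp2: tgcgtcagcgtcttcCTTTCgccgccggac
Rps10: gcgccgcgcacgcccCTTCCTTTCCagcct
Rps6: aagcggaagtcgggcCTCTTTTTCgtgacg
Rps27: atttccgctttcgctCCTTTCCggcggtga
Rps27l: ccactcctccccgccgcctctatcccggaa
Rpl22l1: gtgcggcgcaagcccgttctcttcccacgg

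Members with such a start had median LPS differences of 0.42 in wild-type and 0.33 in knockout cells (8 genes), and members without it 0.37 (34 measured) and 0.31 (33 measured). Among genes outside the family, those with such a start had medians of -0.08 and -0.03, and those without it -0.03 and -0.05. Split by the letters at the exact annotated base, neither the members nor the other genes differed by more than 0.1 on the log2 scale. Genes whose run begins a few bases away count here as without it. The split therefore cannot tell if TOP messenger RNAs differ from others.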

How the data were processed

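The data are 4 Affymetrix arrays, 1 per group, each of RNA pooled from 3 experiments. The values the authors deposited are log2 signals, and the submitters' processing notes name MAS5 without a version. MAS5 subtracts background and scales each array to a target, and the unlogged values had a trimmed mean (2% at each end) of about 500 on every array. The number of arrays limits precision.

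Names came from the platform annotation, in which 34958 probe sets had 1 symbol, 932 several and 9211 were not listed. All 50 members' gene identifiers were in the GRCm38.p6 table. Each gene took its single-symbol probe set with the highest mean log2 signal. Values under the floor were set to it. A gene counts as measured where at least 1 array of the comparison exceeds the floor, and where the other array does not, the difference is a bound. No p-value was computed. Analysis used Python 3.11.15, numpy 2.4.6 and pandas 2.3.3. A check on simulated data without noise covered only the computing of differences and calls, not noise, dim signals or scaling. Members and gene lists were chosen with earlier results of these data known. Named genes were those called, the 5 highest and lowest members above the floor on every array in each comparison, members with conflicting probe sets, stalk proteins, paralogs with their partners, and list genes with the largest differences; Rps3, Rpsa, Rpl13a, Rpl11, Ncl, Larp1 and Mtor were named for their known roles after their values were seen. Alternatives changed the scaling, the floor and the choice of probe sets.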

Additional observations from a re-analysis of the deposited data

Results flagged for a closer look

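One probe set of Rps9, 1434624_x_at, was left out of the comparisons because a brighter probe set represents the gene, and it held a large genotype difference. It was 4.64 higher in knockout than in wild-type cells without LPS and 4.83 higher with LPS, on the log2 scale. It was the one probe set of 45101 on which the knockout signal was at least 16-fold higher at both times, and 2 probe sets were at least 16-fold lower at both. The other single-symbol probe sets of Rps9 did not show it, and the cause was not tested.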

How the results depend on the processing

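The direction of the members' LPS difference depended on the scaling. Relative to the poly-A controls the medians were -0.20 in wild-type and -0.30 in knockout cells, with 8.33% and 2.13% of members above 0 and 2 members called lower in knockout cells; the knockout median without LPS became 0.23, and 20.8% of response differences were above 0. Quantile normalization gave 0.10 and 0.047, and median scaling 0.61 and 0.42. Median scaling also gave -0.072 for knockout against wild type with LPS (20.8% above 0) and -0.19 for the response difference (8.33% above 0). The scaling moved all genes by up to -0.61. The Rpl12 call was absent (0 called lower) under quantile and median scaling, a floor at the 75th percentile and shared probe sets (Rpl12 at 0.35). The Rps27 call was absent (0) with the floor at the 75th percentile, the second probe set, shared probe sets and bright members.

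Lower floors and other probe sets added calls. A floor at the 50th percentile gave 1 member higher with LPS in wild-type cells, 2 lower in knockout against wild-type LPS cells and 1 lower response difference. No floor gave 2 higher and 2 lower in wild-type cells, 2 higher in knockout cells, 2 lower between genotypes without LPS, 1 higher and 3 lower with it, and 1 response difference each way, while calls over all genes in wild-type cells went from 693 higher and 921 lower to 2720 and 3292. The mean over probe sets gave 2 lower in wild-type cells and 2 higher between genotypes at each time, and the second probe set 1 higher at each (Rps9, on 1434624_x_at). Without _x_at and _s_at probe sets 3 members were lower in wild-type and 2 in knockout cells. No paired analysis was possible because each group holds 1 array. With 1 array a group, the spread between experiments is unknown, and dim probe sets are least precise.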
